A study of Mus musculus with 6 samples.

Results

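The complement genes C1qa, C1qb, C1qc, C3, C3ar1, C5ar1, Cfp, Cfb and Cr2 were followed through the cell types of the mouse spleen. They are 9 of the 32285 genes in the feature list and were chosen by name as components and receptors of complement. The libraries hold suspended spleen cells of wild-type C57BL/6 mice that were 6 weeks old when they began 7 weeks of either ND or MCDHFD feeding, and each diet has 3 libraries, in a study that models MASH (metabolic dysfunction-associated steatohepatitis). The sample titles call the second diet MCD, the treatment label calls it MCDHFD, and the labels do not spell out either name or that of ND. The labels give no sex and do not say whether each library came from a separate mouse or from a pool, so p-values measure only the spread between libraries. Transcripts were counted by unique molecular identifiers (UMIs, 1 per captured transcript) per gene and cell barcode, with a droplet kit that reads transcript 3' ends.

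Complement is a cascade of plasma proteins that tags microbes, immune complexes and dying cells. Its classical pathway begins when C1q, built from the products of C1qa, C1qb and C1qc, binds its target, and all pathways meet at C3, whose fragments either coat the target or act as soluble signals. The alternative pathway amplifies C3 cleavage through factor B (Cfb) and is stabilised by properdin (Cfp). The small fragments C3a and C5a signal through C3ar1 and C5ar1, while C3 fragments fixed to antigen are bound by the receptor that Cr2 encodes. In the mouse spleen, red pulp macrophages clear old red cells, and Cr2 marks B cells, most of all those of the marginal zone.

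The C1q genes lie side by side on mouse chromosome 4, and all 9 members are on the minus strand of mm10. C1qb (ENSMUSG00000036905) spans chr4:136880129-136886187, C1qc (ENSMUSG00000036896) spans chr4:136889804-136893065 and C1qa (ENSMUSG00000036887) spans chr4:136895917-136898803, with 3616 bases between C1qb and C1qc and 2851 between C1qc and C1qa. C3 lies at chr17:57203970-57228136, C5ar1 at chr7:16246743-16259540 and Cfp at chrX:20925454-20931555. Promoters are shown for the C1q genes, which were measured together, and for C3, C5ar1 and Cfp, the members that differed by diet in at least 1 cell type. RefSeq (GRCm38.p6) gave a promoter for 7 of the 9 members, and C1qa and Cfb are named only. Each sequence runs 5′ to 3′ on the minus strand, from 250 bases before the RefSeq start to 50 bases after it. The spans above are from another annotation (GENCODE), which places the start of C1qb, C1qc and C5ar1 elsewhere. Part of the C1qc and C5ar1 sequences before the RefSeq start therefore lies inside the span given for the gene. Capitals mark matches, on either strand, to GAGGAA (the core bound by PU.1), TGCTGA (a MAF half-site) or TTGCNNAA (C/EBP). No marked match overlaps another.
C1qb, chr4:136886151-136886450: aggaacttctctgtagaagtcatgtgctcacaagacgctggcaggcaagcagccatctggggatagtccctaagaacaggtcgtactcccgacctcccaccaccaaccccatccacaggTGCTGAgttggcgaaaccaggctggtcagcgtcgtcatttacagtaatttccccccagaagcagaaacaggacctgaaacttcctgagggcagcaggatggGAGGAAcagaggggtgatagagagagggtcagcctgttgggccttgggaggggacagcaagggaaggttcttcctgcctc
C1qc, chr4:136892865-136893164: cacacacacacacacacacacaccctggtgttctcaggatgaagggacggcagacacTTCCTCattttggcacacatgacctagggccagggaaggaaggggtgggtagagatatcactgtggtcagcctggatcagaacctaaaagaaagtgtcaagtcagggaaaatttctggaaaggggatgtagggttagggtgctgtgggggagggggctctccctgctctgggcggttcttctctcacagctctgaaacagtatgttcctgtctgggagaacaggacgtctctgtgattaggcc
C3, chr17:57228087-57228386: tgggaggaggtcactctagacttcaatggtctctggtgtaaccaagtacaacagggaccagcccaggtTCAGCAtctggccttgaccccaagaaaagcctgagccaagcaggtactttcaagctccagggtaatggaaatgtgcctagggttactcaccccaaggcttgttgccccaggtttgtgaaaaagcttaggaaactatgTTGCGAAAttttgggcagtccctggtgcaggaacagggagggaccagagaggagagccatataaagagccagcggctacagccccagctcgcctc
C5ar1, chr7:16259289-16259588: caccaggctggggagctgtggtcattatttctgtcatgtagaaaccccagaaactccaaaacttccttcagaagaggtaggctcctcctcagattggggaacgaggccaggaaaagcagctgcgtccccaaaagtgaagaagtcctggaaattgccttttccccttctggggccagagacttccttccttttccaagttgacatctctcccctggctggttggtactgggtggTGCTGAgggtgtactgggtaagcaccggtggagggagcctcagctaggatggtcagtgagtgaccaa
Cfp, chrX:20931506-20931805: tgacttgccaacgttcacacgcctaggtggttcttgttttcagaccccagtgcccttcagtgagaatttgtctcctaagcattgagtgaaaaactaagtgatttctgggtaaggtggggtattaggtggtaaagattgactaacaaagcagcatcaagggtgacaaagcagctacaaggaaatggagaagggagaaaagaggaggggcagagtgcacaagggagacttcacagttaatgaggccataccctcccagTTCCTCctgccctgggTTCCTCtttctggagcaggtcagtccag
The C1qb promoter held GAGGAA at -30 and TGCTGA at -131 from the RefSeq start, and the C1qc promoter held GAGGAA on the opposite strand at -193. The C3 promoter held TTGCNNAA at -45 and TGCTGA on the opposite strand at -182. The C5ar1 promoter held TGCTGA at -17, and Cfp held GAGGAA on the opposite strand at 7 and 23 bases after the start. Of 32851 RefSeq promoters of the same length, 28.3% held GAGGAA, 19.5% TGCTGA and 10.8% TTGCNNAA. The fourth motif searched, GAAA and GAAA with any 2 bases between (bound by interferon regulatory factors), was in 3.44% of promoters and in 0 of the 7 of members. These matches are a description of the letters only.

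Total UMIs per library ran from 21259837 to 62238012, and 3278 to 6625 cells per library had at least 1000 UMIs and at most 10% mitochondrial UMIs. In 2 libraries, ND replicate 2 and MCDHFD replicate 3, the deposited barcodes had been filtered to cells and the file headers name Cell Ranger 7.2.0, whereas the other 4 headers name version 9.0.1 and the lists are unfiltered. Median mitochondrial shares were 0.569% and 1.68% in these 2 libraries and 3.73% to 3.96% in the other 4. Each diet has 1 filtered and 2 unfiltered lists, so diet was tested in edgeR (quasi-likelihood, Benjamini-Hochberg over all genes tested in the cell type) with list form as a second term, and the adjusted p with diet alone is given beside each call. The 2 filtered libraries shared 12 cell barcodes, and any 2 unfiltered libraries shared 5 to 18. A filtered and an unfiltered library shared 0 or 1. List form, header version and any other difference between these 2 sets of libraries cannot be told apart, and list form names the split below. Levels are in CPM, the gene's UMIs over all UMIs of the cell type in that library on the usual scale, and log2 changes are MCDHFD minus ND.

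Cells were assigned by the genes they carried. Red pulp macrophages had Vcam1 and Hpgd, classical monocytes Ccr2 and Ly6c2, patrolling monocytes Csf1r and Treml4, and neutrophils Csf3r with at least 5 S100a8 UMIs. Dendritic cells had Flt3 with at least 3 H2-Aa UMIs, and B cells had at least 2 Cd79a UMIs. Red pulp macrophages numbered 54 to 191 per library, classical monocytes 95 to 298, patrolling monocytes 87 to 389, neutrophils 137 to 465, dendritic cells 92 to 238 and B cells 1564 to 4225. Every independent marker of each type was detected in its own cells in every library. Cells named patrolling monocytes were mixed, however: their own 6 markers summed to 519 to 1155 CPM, beside 1853 to 5246 CPM for the 8 red pulp macrophage markers and 5547 to 8956 CPM for the 6 classical monocyte markers, 1152 to 7610.0 CPM for the 6 neutrophil markers and 1867 to 17235 CPM for the 3 erythroid markers. Of all barcodes, 1498 met more than 1 definition. Red pulp macrophages and patrolling monocytes shared 342, which is 36.6% to 77.8% of the former and 13.9% to 48.6% of the latter, and dendritic cells and B cells shared 429, 45.0% to 56.6% of dendritic cells.

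**Figure D1:**
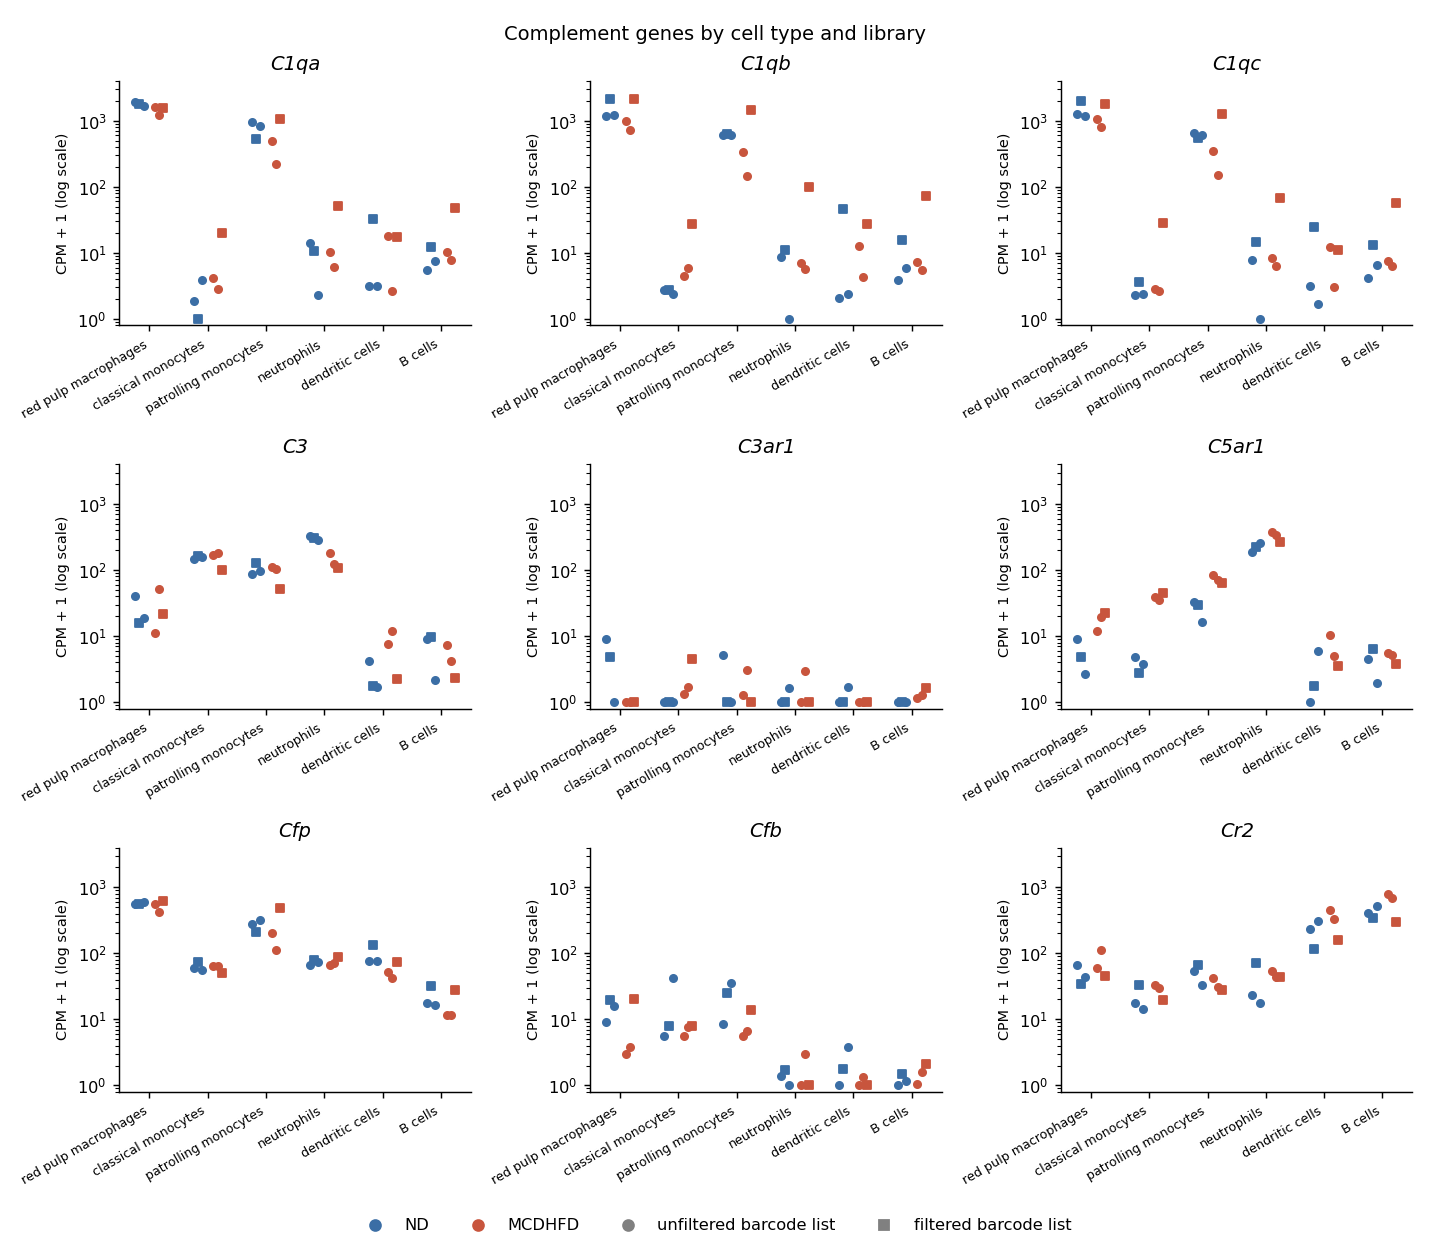
Level of each of the 9 complement genes in each library, as CPM + 1 on a log axis, for the 6 cell types. Colours give the diet and squares the 2 libraries with filtered barcode lists. The C1q genes and Cfp were highest in red pulp macrophages, C3 and C5ar1 in neutrophils and Cr2 in B cells, while C3ar1 stayed at or below 8.08 CPM throughout.

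Diet differences were called for few members. Of 54 combinations of member and cell type, 39 passed edgeR's filter on low counts, and 3 were called at adjusted p under 0.05. C5ar1 rose with MCDHFD in classical monocytes, 1 of 5 members tested there, where 0.544% of all genes tested were called higher. C3 fell in neutrophils, 1 of 7 tested, where 4.36% of all genes were called lower, and Cfp fell in dendritic cells, 1 of 5 tested, against 0.724% of all genes called lower. With diet alone as the model, only the C5ar1 call held of these 3, where 0.041% of all genes in classical monocytes were called higher.

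No member was called in the other 3 types. The count was 0 of 6 in red pulp macrophages, where 0.441% of all genes were called in either direction, with 0 members at an unadjusted p under 0.05 and 0 called by DESeq2. It was 0 of 8 in patrolling monocytes, where 0.255% of all genes were called, with 2 members (C5ar1 and Cfb) at an unadjusted p under 0.05 and 1 (C5ar1) called by DESeq2. It was 0 of 8 in B cells, where 4.36% of all genes were called, with 4 members (the C1q genes and Cfp) at an unadjusted p under 0.05 and 2 (C1qa and Cfp) called by DESeq2. Over all kept cells together, 0 of 9 members were called by edgeR or by DESeq2, 0 had an unadjusted p under 0.05, and 2.23% of all genes were called; in such a sum, fewer cells of a type and less RNA per cell cannot be told apart.

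The order of cell types was compared between neighbours with an exact two-sided sign-flip permutation test over the 6 libraries. In 18 of 45 neighbouring pairs the upper type was higher in 6 of 6 libraries, each at an exact p = 0.03125, the smallest this design allows. After Benjamini-Hochberg adjustment over the 45 pairs the smallest p was 0.0781, so 0 pairs passed. Neighbours in an order given below are therefore separated only in the sense that every library put them in that order.

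C1q was the strongest complement signal of the macrophages. Averaged over 6 libraries, C1qa measured 1623 ± 239 CPM (SD) in red pulp macrophages and 686 ± 325 CPM in patrolling monocytes, and at most 14.7 CPM in any other type. C1qb measured 1394 ± 598 and 632 ± 458 CPM in the same 2 types, and C1qc 1355 ± 459 and 592 ± 373 CPM. For each chain the macrophages were above the patrolling monocytes in 6 of 6 libraries. B cells, neutrophils, dendritic cells and classical monocytes could not be ordered by these genes, because their order changed from library to library. Red pulp macrophages held 63.5% to 77.5% of all C1qa UMIs in kept cells, although they were 1.09% to 1.68% of kept cells in ND and 1.49% to 5.40% in MCDHFD. Patrolling monocytes, which share barcodes with them, held 45.8% to 88.7% of the same UMIs, so the 2 shares overlap. The patrolling share was the larger in ND replicate 3 and MCDHFD replicate 1.

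By diet, C1qa in red pulp macrophages measured 1898, 1808 and 1668 CPM in ND replicates 1 to 3, and 1599.8, 1213 and 1554 CPM in MCDHFD replicates 1 to 3. Every MCDHFD library lay below every ND library, as for 2.9% of all genes tested in these cells. The log2 difference was -0.33 (SE 0.221, edgeR adjusted p = 0.799), so it was not called, nor was it under any of 19 alternative settings (adjusted p 0.517 to 1). C1qb measured 1177, 2111 and 1207 CPM in ND and 993, 724 and 2155 CPM in MCDHFD. C1qc measured 1269, 2013 and 1194 CPM in ND and 1070.2, 794 and 1792 CPM in MCDHFD. For both genes the diets overlapped, and the highest library of each diet was the one with a filtered list; their log2 differences were -0.34 (adjusted p = 0.812 in edgeR) and -0.36 (adjusted p = 0.765). The macrophages' own markers summed to 6841 to 9669.5 CPM in ND and 5206 to 9829.7 CPM in MCDHFD, and erythroid markers to 19799.9 to 82137 CPM in ND and 117 to 29248 CPM in MCDHFD. Both overlapped, and their part in the C1q values was not tested.

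The balance of the 3 chains split the libraries as list form does and not as diet does. In red pulp macrophages the ratio of C1qb to C1qa UMIs was 0.620, 1.17 and 0.724 in ND and 0.621, 0.596 and 1.39 in MCDHFD, and the ratio of C1qc to C1qa UMIs was 0.669, 1.11 and 0.716 in ND and 0.669, 0.654 and 1.15 in MCDHFD. Both ratios were above 1 in the 2 libraries with filtered lists and below 1 in the other 4. The part of list form, header version or any other difference between these 2 sets of libraries was not tested. Single macrophages usually carried the whole set: 85.5% to 88.9% of them in ND and 72.4% to 81.7% in MCDHFD had a UMI of all 3 chains, and 1.23% to 5.10% had none. At 1000 UMIs per cell, after random thinning, a C1qa UMI was found in 72.7% to 80.2% of ND and 63.3% to 70.2% of MCDHFD macrophages, against 90.9% to 96.3% and 89.5% to 94.5% before thinning. T cells, which should lack the gene, had a C1qa UMI in 0.424% to 4.02% before and 0 to 1.53% after thinning.

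**Figure D2:**
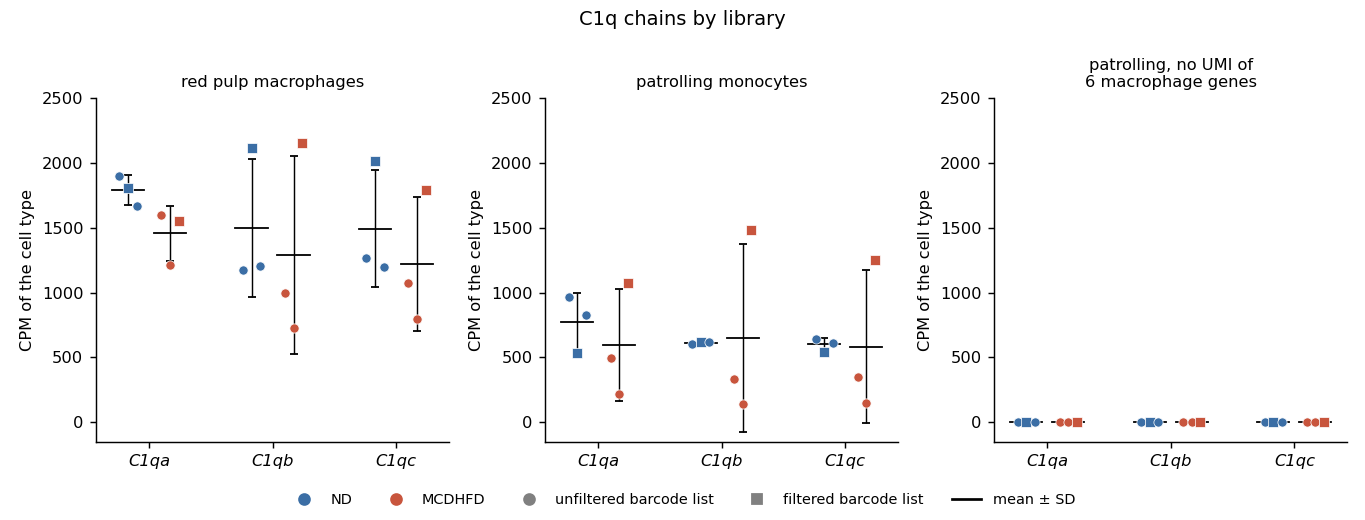
CPM of C1qa, C1qb and C1qc in red pulp macrophages, in all patrolling monocytes and in patrolling monocytes with no UMI of 6 macrophage genes, by library; lines and bars are mean ± SD of 3 libraries and squares are filtered barcode lists. The last panel lies at or below 4.71 CPM, and the squares stand above the other libraries for C1qb and C1qc in red pulp macrophages.

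In patrolling monocytes the C1q genes spread widely. C1qa measured 968, 531 and 828 CPM in ND and 498, 218 and 1071 CPM in MCDHFD, C1qb 601, 619 and 616 CPM against 332, 143 and 1479 CPM, and C1qc 645, 542 and 613 CPM against 351, 149 and 1251 CPM. The 2 unfiltered MCDHFD libraries were the lowest and the filtered one the highest for each chain, and adjusted p ran from 0.767 to 0.821 in edgeR. In patrolling monocytes that met no other definition, C1qa averaged 317 ± 237 CPM, C1qb 311 ± 295 and C1qc 290 ± 215 CPM (SD, n = 6). A split by macrophage transcripts, added after the data were seen, placed the signal in the cells that carry them. With every barcode left out that had a UMI of Vcam1, Hpgd, Spic, Slc40a1, Cd163 or Axl, 60, 34 and 65 cells remained in ND and 162, 234 and 25 in MCDHFD. In them C1qa was 0, 0 and 1.72 CPM in ND and 2.55, 1.29 and 0 CPM in MCDHFD, and C1qb and C1qc were between 0 and 4.71 CPM. No cell of this subset had all 3 chains, and 92.6% to 100% had none.

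Elsewhere C1q UMIs were few. In B cells C1qa measured 4.56, 11.1 and 6.58 CPM in ND and 9.20, 6.67 and 46.5 CPM in MCDHFD, and in neutrophils C1qb measured 7.51, 10.2 and 0 CPM in ND and 5.92, 4.70 and 98.6 CPM in MCDHFD. MCDHFD replicate 3, a filtered list, was the highest in both, as it was in T cells, where C1qa reached 14.6 CPM there and 0.500 to 4.59 CPM in the other 5 libraries. In dendritic cells ND replicate 2, the other filtered list, was the highest for all 3 chains, at 31.4 CPM for C1qa, 44.5 for C1qb and 23.8 for C1qc. Barcodes with under 100 UMIs, which hold free RNA, gave C1qa at 20.1 to 78.2 CPM in the 4 unfiltered libraries, above the level in B cells of each of them. In B cells that met no other definition, the 3 chains were called higher with MCDHFD (adjusted p 0.00463 to 0.0304 in edgeR, where 2.6% of all genes were called higher), at 0.464 to 31.5 CPM and with no call under diet alone (0.887 to 0.975).

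Properdin, the stabiliser of the alternative C3 convertase, was also highest on average in red pulp macrophages. Cfp measured 549 ± 68.8 CPM (SD, n = 6) in red pulp macrophages and 266 ± 125 CPM in patrolling monocytes, then 74.9 ± 31.5 in dendritic cells, 73.0 ± 8.35 in neutrophils and 60.3 ± 8.54 in classical monocytes, and 18.5 ± 8.47 CPM in B cells. Neutrophils, dendritic cells and classical monocytes changed places between libraries. In barcodes of 1 definition only, patrolling monocytes averaged 145 ± 90.1 CPM and dendritic cells 93.8 ± 46.2 CPM. There the patrolling monocytes were higher in 5 of 6 libraries. In red pulp macrophages Cfp was 551, 561 and 592 CPM in ND and 554, 418 and 617 CPM in MCDHFD, with overlapping diets and a log2 difference of -0.15 (adjusted p = 0.924 in edgeR).

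In dendritic cells Cfp measured 75.1, 132 and 76.2 CPM in ND and 51.0, 41.3 and 73.9 CPM in MCDHFD. All MCDHFD values lay below the ND values, by a narrow gap of 73.9 to 75.1 CPM, and the filtered list gave the highest value of each diet. Of all genes tested there, 4.53% were lower without overlap. The log2 change was -0.79 (SE 0.147, edgeR adjusted p = 0.0288), within unfiltered lists -0.80 and within filtered lists -0.85. The call was lost with diet alone (adjusted p = 0.724), in 5 of the 6 fits that left out 1 library, and when barcodes of more than 1 definition were left out (log2 -0.88, adjusted p = 0.0704). B cell markers summed to 2171 to 4313 CPM in ND and 1607 to 3748 CPM in MCDHFD dendritic cells, which overlapped, and classical monocyte markers to 370.2 to 500.3 CPM and 561 to 1435 CPM, which did not. Their part in this result was not tested.

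Follicular-type B cells, those with Fcer2a and without Cd9, showed lower Cfp as well. There Cfp was 12.2, 22.7 and 13.3 CPM in ND and 6.69, 7.45 and 10.9 CPM in MCDHFD. The diets did not overlap, as for 3.52% of all genes tested there (lower with MCDHFD). Cfp fell by 0.98 on the log2 scale (SE 0.138, edgeR adjusted p = 0.0013). The call held in 6 of 6 fits that left out 1 library (adjusted p 0.00211 to 0.0126) and was lost with diet alone (adjusted p = 0.823). It is 1 of 2 calls among 7 members tested in these cells, where 6.61% of all genes tested were called. In them B cell markers were at 5334 to 5438 CPM in ND and 4009 to 5232 CPM in MCDHFD. Plasma cell markers were at 344 to 475 and 207 to 305, and marginal zone markers at 97.0 to 133 and 138 to 148 CPM. Red pulp macrophage markers were at 48.5 to 51.7 and 54.4 to 71.0 CPM. None of these overlapped, and their part in the Cfp difference was not tested. In marginal zone-type B cells (Cd1d1 and Cd9 without Fcer2a, 24 to 105 cells per library), 0 of 2 members tested were called by edgeR or DESeq2, 1 (Cfp) had an unadjusted p under 0.05, and 0.0119% of all genes were called; Cfp was 46.5, 63.4 and 35.6 CPM in ND and 19.9, 16.2 and 53.4 CPM in MCDHFD.

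Factor B, the protease of the alternative convertase, was rare. Cfb averaged 15.0 ± 12.1 CPM (SD, n = 6) in patrolling monocytes, 11.8 ± 14.3 in classical monocytes and 10.95 ± 7.72 in red pulp macrophages, which changed places between libraries, and under 1 CPM in dendritic cells, neutrophils and B cells. In classical monocytes Cfb was 4.66, 6.98 and 40.9 CPM in ND and 4.65, 6.59 and 6.88 CPM in MCDHFD. ND replicate 3 alone was high, and the log2 difference of -1.55 was not called (adjusted p = 0.344 in edgeR). In patrolling monocytes Cfb was 7.43, 24.2 and 34.8 CPM in ND and 4.54, 5.73 and 13.02 CPM in MCDHFD, and its difference of -1.75 was not called either (adjusted p = 0.335). With no filter on low counts both were called (edgeR adjusted p 0.000491 and 1.68e-05). In that setting 936 of all genes were called in classical and 572 in patrolling monocytes, beside 106 and 23 in the main fit. Without ND replicate 3 the log2 difference in classical monocytes was 0.15.

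C3, the protein on which every pathway converges, was a transcript of granulocytes and monocytes. It averaged 221 ± 97.6 CPM (SD, n = 6) in neutrophils, 153 ± 27.9 in classical monocytes and 95.5 ± 26.2 in patrolling monocytes, then 25.4 ± 15.5 in red pulp macrophages and under 5 CPM in B cells and dendritic cells. Neutrophils and classical monocytes changed places between libraries, while classical lay above patrolling monocytes and these above macrophages in 6 of 6.

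Neutrophil C3 was lower with MCDHFD. It measured 332, 303 and 283 CPM in ND and 179, 121 and 107 CPM in MCDHFD, with no overlap. Of all genes tested there, 8.11% were lower without overlap. C3 fell by 1.35 on the log2 scale (SE 0.216, 2.56-fold, edgeR adjusted p = 0.0175), with -1.25 within unfiltered and -1.71 within filtered lists. With diet alone the change was -1.33 and was not called (adjusted p = 0.0979). Leaving out ND replicate 1 (adjusted p = 0.133) or ND replicate 3 (0.0863) in edgeR also ended the call, and 17 of 21 alternative settings kept it. In neutrophils that met no other definition C3 was called with either model (adjusted p = 0.0028, and 0.0466 with diet alone, log2 -1.71), where 13.8% of all genes were called lower in the first. Several marker sums in neutrophils did not overlap between the diets either. Erythroid markers were at 37.5 to 1464 CPM in ND and 1749 to 14521 CPM in MCDHFD, red pulp macrophage markers at 241 to 319 and 472 to 610.2 CPM, classical monocyte markers at 8379 to 10761 and 4760.3 to 6832 CPM, and the neutrophils' own markers at 95844 to 128926 and 60584 to 86141 CPM. Their part in the C3 difference was not tested.

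The make-up of the neutrophils differed along with it. Neutrophils with at least 5 UMIs of the granule genes Ngp, Camp and Ltf, which are made early in neutrophil maturation, were 37.4%, 31.4% and 25% of neutrophils in ND and 6.86%, 2.22% and 13.1% in MCDHFD. C3 was concentrated in them, at 447, 480.1 and 452 CPM in ND and 484, 197 and 223 CPM in MCDHFD. Only 10 to 26 such cells remained per MCDHFD library, so no test was made. In the other neutrophils C3 was 82.6, 73.7 and 86.1 CPM in ND and 94.2, 116 and 78.8 CPM in MCDHFD. There the diets overlapped and the log2 difference was 0.32 (SE 0.166, adjusted p = 0.459 in edgeR, where 0.0985% of all genes were called lower).

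**Figure D3:**
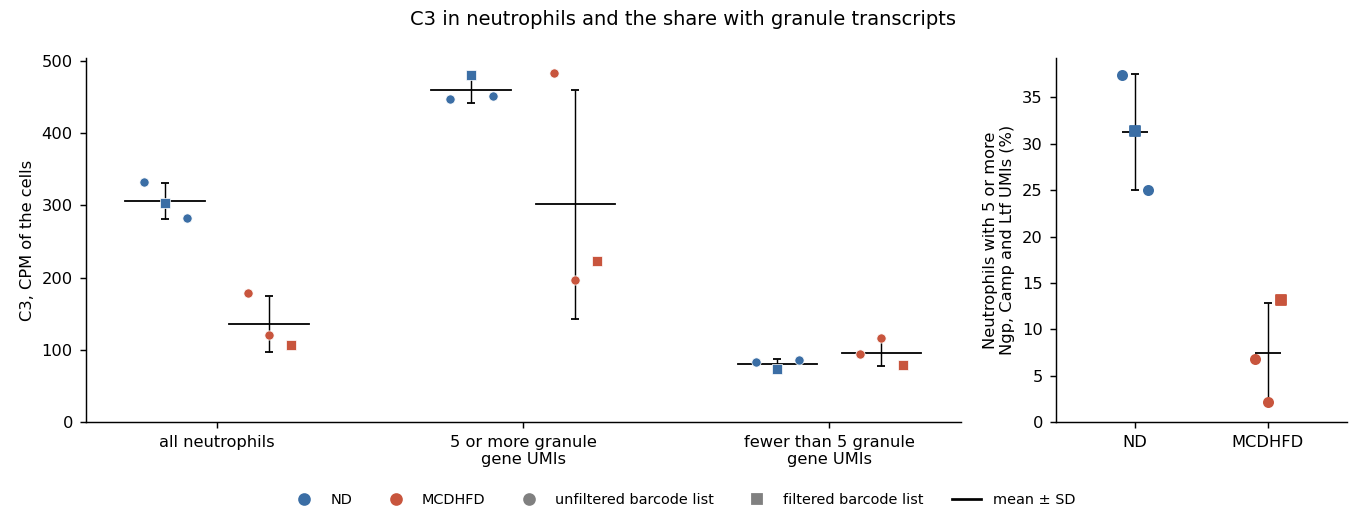
Left, C3 in CPM in all neutrophils and in those with 5 or more and fewer than 5 UMIs of the granule genes Ngp, Camp and Ltf; right, the share of neutrophils with 5 or more, in percent. Points are libraries and bars are mean ± SD of 3. All neutrophils separate by diet, the cells with fewer granule UMIs overlap, and the share runs from 25% to 37.4% in ND and 2.22% to 13.1% in MCDHFD.

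Monocyte C3 was not called. Classical monocytes measured 148, 164 and 156 CPM in ND and 168, 181 and 101 CPM in MCDHFD, and patrolling monocytes 86.7, 127 and 96.5 CPM in ND and 111, 102 and 49.9 CPM in MCDHFD. The diets overlapped in both, with log2 differences of -0.09 (adjusted p = 0.855 in edgeR) and -0.20 (adjusted p = 0.849). Over all kept cells, neutrophils held 58.6% to 68.3% of C3 UMIs in ND and 28.7% to 41.4% in MCDHFD, and classical monocytes 13.5% to 30.6% in ND and 46.2% to 61.1% in MCDHFD. A barcode of more than 1 definition counts in each share. Classical monocytes were 2.38% to 2.90% of kept cells in ND and 3.00% to 4.52% in MCDHFD. Neutrophils were 3.22% to 7.10% and 3.88% to 6.84%. The sum over all kept cells was 51.6, 34.7 and 19.1 CPM in ND and 24.6, 25.6 and 11.8 CPM in MCDHFD, which overlapped (adjusted p = 0.252 in edgeR).

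C5ar1, the receptor for C5a, gave the largest log2 change of the 3 calls. Neutrophils carried most of it, at 276 ± 73.5 CPM (SD, n = 6) and 68.1% to 91.5% of all C5ar1 UMIs, followed by patrolling monocytes at 48.1 ± 26.4 CPM and classical monocytes at 20.9 ± 20.2 CPM. Neutrophils were above patrolling monocytes, and these above classical monocytes, in 6 of 6 libraries.

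In classical monocytes C5ar1 was rare with ND and 12.4-fold higher with MCDHFD. It measured 3.81, 1.74 and 2.82 CPM in ND and 38.4, 33.9 and 44.7 CPM in MCDHFD, from 15 UMIs in all ND and 320 in all MCDHFD cells of the type. Every MCDHFD library was far above every ND library. In these cells 7.48% of all genes tested were higher with MCDHFD without overlap. C5ar1 rose by 3.63 on the log2 scale (SE 0.301, edgeR adjusted p = 0.00258), and by 3.66 with diet alone (adjusted p = 0.0151). The change was 3.29 within unfiltered and 4.36 within filtered lists. It was called in 19 of 21 alternative settings, at log2 3.33 to 4.04, and in 6 of 6 fits without 1 library. The 2 exceptions were the fit with replicate number as a block (adjusted p = 0.180) and diet alone with barcodes of more than 1 definition left out (adjusted p = 0.0664).

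A C5ar1 UMI was found in 2.11% to 3.85% of ND and 23.2% to 26.4% of MCDHFD cells, and after thinning to 1000 UMIs in 3.36% to 4.72% of the MCDHFD cells. In ND, 0 of 156, 95 and 121 thinned cells had one, which allows shares of up to 1.92%, 3.16% and 2.48%; such limits are for cells with a UMI at that depth, not for cells that express the gene. T cells, before thinning, had one in 0 of 921, 626 and 708 cells in ND, which allows up to 0.326%, 0.479% and 0.424%, and in 0.0956% to 0.243% in MCDHFD, at a median of 5734.5 to 8444 UMIs per cell against 9942 to 13804.5 in classical monocytes. Because neutrophils are rich in C5ar1, neutrophil markers were measured in the same cells. They summed to 77.6 to 4587 CPM in ND and 648 to 2006 CPM in MCDHFD classical monocytes, and Ly6g and Retnlg were at 0 in some libraries. With barcodes of at least 5 S100a8 UMIs left out, C5ar1 was 1.05, 1.91 and 3.01 CPM in ND and 35.3, 31.7 and 24.7 CPM in MCDHFD. The difference was as large, at log2 3.99 (SE 0.366, edgeR adjusted p = 0.0013, and 0.0199 with diet alone), where 1.02% of all genes were called higher. Neutrophil markers there summed to 44.8 to 186 CPM in ND and 97.6 to 153 CPM in MCDHFD. Markers of some other types did not overlap between the diets in classical monocytes: dendritic cell markers were at 784 to 1141 CPM in ND and 453 to 574 CPM in MCDHFD, plasmacytoid dendritic cell markers at 371 to 544 and 190.1 to 311 CPM, red pulp macrophage markers at 228 to 357 and 368 to 476 CPM, and marginal zone B cell markers at 43.6 to 52.3 and 70.7 to 88.6 CPM. Their part in the C5ar1 difference was not tested.

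**Figure D4:**
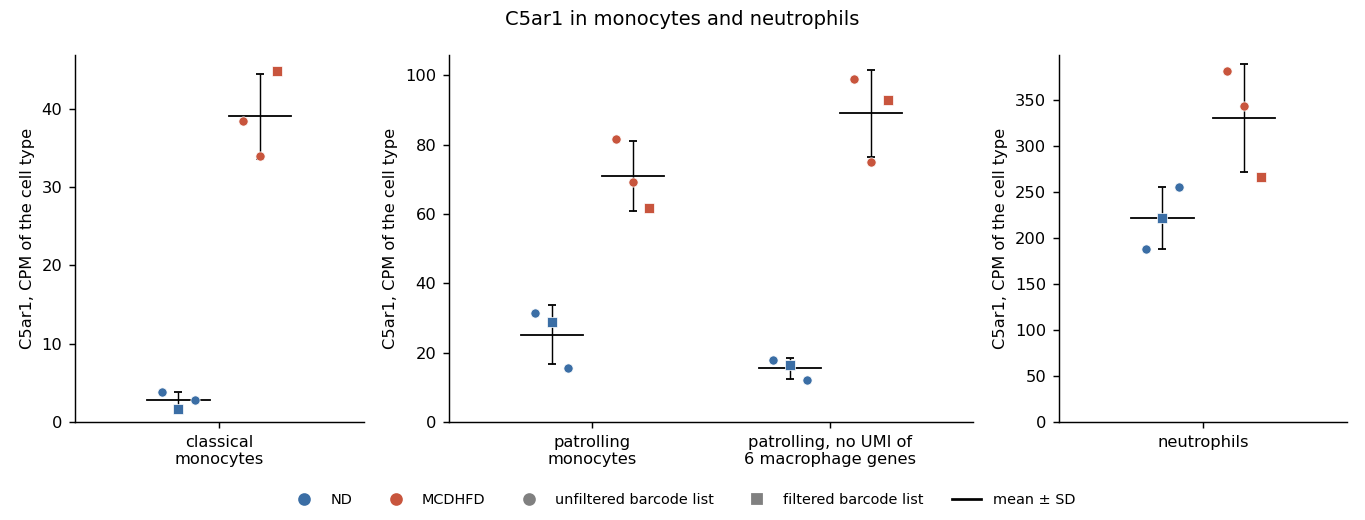
C5ar1 in CPM by library in classical monocytes, in patrolling monocytes with and without barcodes that carry macrophage genes, and in neutrophils, each panel on its own scale from 0. Points are libraries, squares are filtered lists and bars are mean ± SD of 3. The diets do not overlap in any group shown, from 1.74 to 3.81 against 33.9 to 44.7 CPM in classical monocytes to 188 to 256 against 267 to 382 CPM in neutrophils. Of all genes tested, 7.48%, 3.45%, 6.98% and 14.2% were higher with MCDHFD without overlap, in the same order of groups.

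Patrolling monocytes, which shared 219 barcodes with classical monocytes over the 6 libraries, gave the same direction with a smaller difference. C5ar1 measured 31.4, 28.8 and 15.6 CPM in ND and 81.8, 69.3 and 61.8 CPM in MCDHFD, without overlap. Of all genes tested there, 3.45% were higher with MCDHFD without overlap. The log2 difference of 1.55 (SE 0.248) missed the threshold (edgeR adjusted p = 0.0601, and 0.275 with diet alone), and 6 of 21 alternative settings called it. In the patrolling monocytes without a UMI of the 6 macrophage genes, C5ar1 was 17.9, 16.5 and 12.0 CPM in ND and 99.0, 75.0 and 93.0 CPM in MCDHFD. In this subset, defined after the data were seen, C5ar1 rose by 2.49 on the log2 scale (SE 0.286, edgeR adjusted p = 0.00029, and 0.0224 with diet alone), where 1.19% of all genes were called higher. The share of these cells with a C5ar1 UMI was 9.23% to 14.7% in ND and 43.6% to 51.9% in MCDHFD. Whether the change differs between the 2 monocyte types was not tested. Neutrophil markers summed to 1152 to 7610.0 CPM in ND and 2067 to 3850 CPM in MCDHFD patrolling monocytes, and to 61.9 to 3464 CPM and 127 to 2171 CPM in the subset, overlapping in both. Dendritic cell markers, at 895 to 1579 CPM in ND and 475 to 855 CPM in all MCDHFD patrolling monocytes, did not overlap. Nor did plasmacytoid dendritic (135 to 189 and 68.8 to 101) or marginal zone B cell markers (86.3 to 143 and 63.3 to 80.5 CPM). In the subset, the patrolling monocytes' own markers were at 1504 to 1955 CPM in ND and 1165 to 1219 CPM in MCDHFD. Red pulp macrophage markers there were at 459 to 475 and 503 to 710 CPM. Plasmacytoid markers were at 155 to 178 and 67.7 to 71.5 CPM, and T cell markers at 1.99 to 36.3 and 63.8 to 86.9 CPM. None of these overlapped, and the part of these cells in the C5ar1 values was not tested.

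Neutrophil C5ar1 was 188, 222 and 256 CPM in ND and 382, 344 and 267 CPM in MCDHFD. The diets were apart by a narrow gap, where 14.2% of all genes tested were higher with MCDHFD without overlap. The log2 difference of 0.40 (SE 0.187) was not called (adjusted p = 0.213 in edgeR). In neutrophils that met no other definition it was 0.85 and called (adjusted p = 0.00709, and 0.0993 with diet alone), in a set where 12.9% of all genes were called higher. Red pulp macrophages had 8.08, 3.74 and 1.64 CPM in ND and 11.1, 18.6 and 21.6 CPM in MCDHFD, below the filter on low counts. In follicular-type B cells C5ar1 was under 2 CPM in every library, and its call (log2 2.03, edgeR adjusted p = 0.0276, and 0.484 with diet alone) was lost in 6 of 6 fits without 1 library.

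C3ar1, the receptor for C3a, was hardly detected. No cell type of any library exceeded 8.08 CPM, it passed the filter in none of the 6 cell types, and all kept cells together held 36 UMIs in ND and 57 in MCDHFD. Cells that met none of the 6 definitions held 50% to 92.9% of its UMIs in ND and 21.1% to 84% in MCDHFD. Such cells were 24.3% to 28.2% of kept cells in ND and 37.5% to 43.4% in MCDHFD. Neither an order of the 6 cell types nor a diet difference in C3ar1 was detectable at this depth.

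Cr2, the receptor for C3 fragments bound to antigen, belonged to B cells, which held 91.3% to 99.0% of its UMIs. The B cell mean was 505 ± 194 CPM (SD, n = 6), and dendritic cells followed at 267 ± 123 CPM, below B cells in 6 of 6 libraries. Of the dendritic cells, 45.0% to 56.6% also met the B cell definition, and in dendritic cells that met no other definition Cr2 was 1.42, 0 and 6.76 CPM in ND and 38.5, 17.6 and 0 CPM in MCDHFD. The remaining 4 types lay between 13.4 and 109.9 CPM, beside 2.54 to 7.38 CPM in T cells and 131 to 243 CPM in barcodes under 100 UMIs of the unfiltered libraries. The T cells exclude barcodes with Cd79a or of any other definition, whereas these types include them. In barcodes of 1 definition only, Cr2 averaged 6.42 ± 4.26 CPM (SD, n = 6) in neutrophils and 11.6 ± 13.2 in red pulp macrophages. It averaged 4.25 ± 4.08 CPM in patrolling and 2.67 ± 1.86 CPM in classical monocytes.

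By diet, the libraries with unfiltered and filtered lists pointed in opposite directions for Cr2. In B cells it was 411, 342 and 519.7 CPM in ND and 778, 686 and 294 CPM in MCDHFD. The 2 unfiltered MCDHFD libraries were the highest and the filtered one the lowest of all. The log2 difference was 0.31 (SE 0.175, edgeR adjusted p = 0.344), made of 0.56 within unfiltered and -0.23 within filtered lists. In the 4 unfiltered libraries alone, Cr2 was called higher with MCDHFD (log2 0.56, edgeR adjusted p = 0.0163), and so it was without ND replicate 2 (0.0218) or without MCDHFD replicate 3 (0.0195). The number of all genes called in B cells ran from 0 to 2728 over the settings, beside 602 in the main fit. The Cr2 calls were not set against the share of all genes called in their own fits.

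The subsets repeated this split in Cr2. Marginal zone-type B cells had the higher levels, at 721, 719 and 794 CPM in ND and 1449, 1269 and 368 CPM in MCDHFD. Follicular-type B cells had 449.9, 368 and 521 CPM in ND and 748, 669 and 331 CPM in MCDHFD. In both, MCDHFD replicate 3 was below every other library, and adjusted p was 0.610 and 0.291 in edgeR. In the 4 unfiltered libraries alone both were called higher (log2 0.70, adjusted p = 0.0307, and log2 0.46, adjusted p = 0.00582, in edgeR). Over the settings, 0 to 377 of all genes were called in marginal zone-type cells, beside 1 in the main fit. In follicular-type cells 0 to 1555 were called, beside 801.

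**Figure D5:**
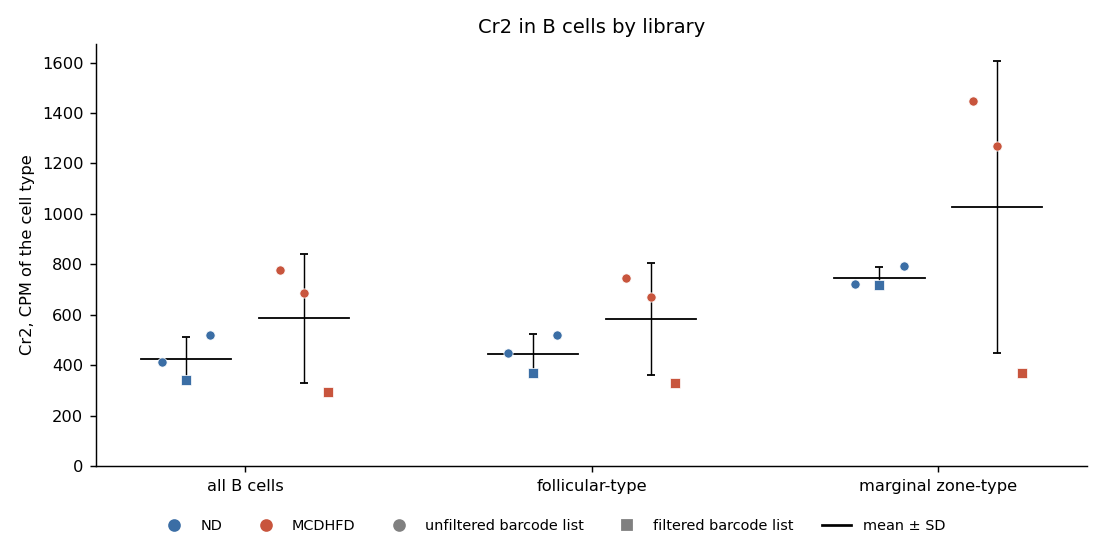
Cr2 in CPM by library in all B cells, follicular-type and marginal zone-type B cells; bars are mean ± SD of 3 libraries and squares mark filtered barcode lists. The 2 round MCDHFD points lie above all others in each group, and the MCDHFD square, at 294, 331 and 368 CPM, is the lowest.

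The genes most like each member were taken from 9607 genes over the 36 sums of 6 libraries and 6 cell types, by Pearson's correlation of log2(CPM + 1). The 36 points share libraries and, in part, barcodes, so the values describe likeness only. C1qa, C1qb and C1qc shared the same closest genes, Fcna (ficolin A, a lectin of the complement system; r = 0.992, 0.981 and 0.988), Cd5l (0.975, 0.962 and 0.977) and Igf1 (0.980, 0.957 and 0.968). Among themselves the chains correlated at 0.984 to 0.993. Cfp was closest to Creg1 (r = 0.959), Jup (0.953) and Trf (0.950), and C3 to Mgst1 (0.961), Mtus1 (0.938) and Sqor (0.925). C5ar1 was closest to Clec4d (0.941), Trem1 (0.932) and Lrg1 (0.927). Cr2 was closest to Rasgrp3 (0.972), Scd1 (0.963) and Pax5, the B cell identity factor (0.963). The likeness was weaker for the rare members, at 0.889 for Cfb with Tnfsf12 and 0.622 for C3ar1 with Rdh10.

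A list of 42 further complement genes showed where the rest of the pathway was transcribed. Red pulp macrophages were led by Fcna, at 744 ± 217 CPM in ND and 617 ± 228 in MCDHFD (SD, n = 3), and by C6, a component of the membrane attack complex, at 479 ± 123 and 496 ± 149 CPM. Neutrophils and classical monocytes were led by Itgam and Itgb2, the subunits of complement receptor CR3, and patrolling monocytes by Itgb2 and Fcna. B cells were led by Cd55, which speeds the decay of C3 convertases, at 329 ± 21.4 CPM in ND and 342 ± 31.5 in MCDHFD, and by Cr1l, the mouse regulator Crry, at 87.8 ± 15.0 and 104 ± 28.7 CPM.

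Few of these 42 genes were called by diet, and none with diet alone in the 6 cell types. In classical monocytes 1 of 10 tested rose and 0 fell, where 0.544% of all genes were called higher: Cd93, a surface receptor once named for C1q binding, was 37.7, 41.9 and 30.3 CPM in ND and 96.4, 131 and 93.8 CPM in MCDHFD (log2 1.55, edgeR adjusted p = 0.0146, and 0.0737 with diet alone). The diets did not overlap, as for 7.48% of all genes tested in these cells (higher with MCDHFD). In neutrophils 1 of 9 fell and 0 rose, where 4.36% of all genes were called lower: Fcnb, ficolin B, was 396, 340.2 and 261 CPM in ND and 69.5, 23.5 and 15.5 CPM in MCDHFD (log2 -3.39, edgeR adjusted p = 0.0151, and 0.0731 with diet alone). The share of neutrophils with at least 5 granule gene UMIs was 25% to 37.4% in ND and 2.22% to 13.1% in MCDHFD. In the other neutrophils 0 of 9 genes tested from the list were called lower, where 0.0985% of all genes were. The part of this make-up in the Fcnb difference was not tested. In dendritic cells Cd93 rose as well (log2 2.10, edgeR adjusted p = 0.0327), where 0.672% of all genes were called higher. In B cells 1 of 16 fell, where 2.68% of all genes were called lower, which was Cd93 (log2 -0.94, adjusted p = 0.0338 in edgeR). In red pulp macrophages 0 of 10 and in patrolling monocytes 0 of 13 were called by edgeR, with 2 and 4 genes at an unadjusted p under 0.05, where 0.441% and 0.255% of all genes were called. The median log2 difference of the genes tested was 0.19 in classical monocytes and 0.62 in dendritic cells, beside 0.01 and 0.03 over all genes, and between -0.09 and 0.13 in the other 4 types.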

How the data were processed

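The deposited matrices hold raw UMI counts for 32285 genes in 6 libraries, per the file headers; every value was tested to be whole. Per the submitters' processing notes, Cell Ranger 9.1.0, Seurat 4.3.0 and mm10 were used; the headers name Cell Ranger 9.0.1 or 7.2.0. A chi-square test of counts between libraries of 1 diet gave 15.6 to 454 per degree of freedom, so no library was a copy of another.

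Barcodes with at least 1000 UMIs and at most 10% mitochondrial UMIs were kept, doublets included; leaving out those that Scrublet predicted was an alternative. UMIs were summed per library and cell type, and a type entered a test if each library had 20 of its cells or more. The test was edgeR 4.0.16 (TMM, filterByExpr, quasi-likelihood, diet and list form) in R 4.3.3, with Benjamini-Hochberg adjustment over all genes of the type and a threshold of 0.05. A barcode that met more than 1 definition counted in each. DESeq2 1.42.0, other normalization, filters and cell limits and leaving out each library were alternatives. Cells, thinning and correlations were computed in Python 3.11.15 with scanpy 1.11.5. On simulated counts the edgeR fit recovered 56% of genes changed by a log2 of 1 in red pulp macrophages, 78% in classical monocytes and 52% in neutrophils. The simulation had a common dispersion per cell type, no difference by list form and changes only in the more abundant genes. It therefore does not give the power for rare members.

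All 9 members were named in every cell type. The other complement genes named were those called by diet or among the 3 highest in a type, except 1 result that is not reported here, and likeness names the 3 genes with the highest correlation for each member (fewer are printed for Cfb and C3ar1). The members, gene lists and the term for list form were chosen with earlier results of these data known. The splits by granule genes, S100a8 and macrophage genes were added after the data were seen. Intervals and shares of cells with a UMI cover counting error only. RefSeq promoters (GRCm38.p6) were matched by gene symbol.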

Additional observations from a re-analysis of the deposited data

Results flagged for a closer look

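In the 4 unfiltered libraries, barcodes with under 100 UMIs hold too little RNA to be kept cells and were in no comparison. For 5 members both MCDHFD libraries were above both ND libraries there, which is why they are listed; with 2 libraries per diet this was not tested. Of the 11102 genes with over 3 UMIs there in each of the 4 libraries, 52.0% were placed the same way, beside 5 of 7 members. C1qa measured 38.6 and 20.1 CPM in ND replicates 1 and 3 and 78.2 and 73.9 CPM in MCDHFD replicates 1 and 2. C1qc measured 22.9 and 12.4 CPM against 39.3 and 32.2 CPM, and C5ar1 14.6 and 3.80 CPM against 18.1 and 20.1 CPM. Cfp measured 26.4 and 24.7 CPM against 30.3 and 35.4 CPM, and Cr2 150.0 and 131 CPM against 243 and 190.1 CPM.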

How the results depend on the processing

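The 3 member calls in the 6 cell types became 1 with diet alone, 0 with the replicate block, 5 in the 4 unfiltered libraries alone, 6 with DESeq2, 9 with no filter on low counts, 8 without barcodes of more than 1 definition (1 when diet stood alone), 5 with each minimum of a cell type's definition 1 UMI higher, and 1 to 5 without 1 library (1 without ND replicate 1 or 3, 5 without ND replicate 2 or MCDHFD replicate 3). The 2 calls in B cell subsets became 0 with diet alone, the replicate block or DESeq2 with diet alone, 5 in the 4 unfiltered libraries, 1 with DESeq2, without predicted doublets or with higher minimums, 5 with no filter, 4 without barcodes of more than 1 definition (0 when diet stood alone), and 1 to 4 without 1 library. The count over all kept cells and that of neighbouring types was 0 in every setting; with 5 or 4 libraries the smallest sign-flip p is 0.0625 or 0.125, which cannot pass. Of 1111 recomputed member differences, 87 changed sign, all called in neither fit, 31 lost a call and 42 gained one. The replicate numbers did not pair the libraries: same-numbered deviations correlated at 0.667, -0.706 and -0.751, and not every library correlated best with its own number. With the replicate block no gene was called in any type. Genes called numbered 33 in red pulp macrophages (0 with diet alone, 253 with no filter), 106 in classical monocytes (5, 936), 23 in patrolling monocytes (0, 572), 679 in neutrophils (11, 1780), 135 in dendritic cells (0, 664), 602 in B cells (0, 952), 1 in marginal zone-type (1, 377), 801 in follicular-type B cells (1, 1502) and 354 in all kept cells (0, 318); DESeq2 called 232, 115, 1138, 38 and 1518 in classical and patrolling monocytes, B cells, marginal zone-type cells and all kept cells. Leaving out 1 library gave 7 to 35, 6 to 189, 2 to 55, 9 to 1160, 15 to 180, 12 to 2584, 0 to 268, 350 to 1555 and 0 to 1892 in the same order of 9 sets. The cause of these differences was not tested. Too few cells remained for red pulp macrophages without shared barcodes (12 in 1 library) and for marginal zone-type B cells with higher minimums (7), so these were not fitted. Depth limits C3ar1 and Cfb, which had few UMIs in every type.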
